A study of Mus musculus with 21 samples.

Results

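The genes that build sialylated glycans and glycosphingolipids were examined in mouse rhabdomyosarcoma, a tumor of skeletal muscle lineage, in 36 listed genes, of which 34 had a probe set named by the annotation of the array. The probe set with the highest mean was taken for each gene, and each of the 34 had 1. St6galnac4 and St6galnac6 were not analysed here. The whole table held 22206 tested probe sets, which named 19505 genes. Each of 21 tumors had its RNA on 1 Clariom S array for mouse, and values are log2 RMA signals.

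Both groups carried 1 disrupted allele of Ptch1, the hedgehog receptor, and a transgene of the human transcription factor ETV7. The 14 NPE tumors came from Neu1+/-/Ptch1+/-/ETV7TG+/- mice, which also lacked 1 allele of the lysosomal sialidase Neu1, and the 7 PE tumors came from Ptch1+/-/ETV7TG+/- mice. The mice were of a mixed background that included FVB/NJ and C57BL/6, of both sexes, and the mice of the whole study were 1 to 24 months old. Tumors of trunk and limb were frozen whole, and the site, sex, age and mouse of each tumor were not in the labels. The promoter that drives the transgene was not given in the sources used here. In such bulk RNA, fewer cells of a type and less RNA per cell cannot be told apart.

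Sialic acid is an acidic sugar that caps the outer ends of glycans on proteins and lipids. It is made in the cytosol from a UDP-sugar, activated with CMP, carried into the Golgi and transferred by families of sialyltransferases that differ in the linkage they form and in their acceptor. Glycosphingolipids begin when glucose and then galactose are added to ceramide, and gangliosides are those that carry sialic acid. Neu1 removes sialic acid in the lysosome, the opposite of the transfer made by the sialyltransferases. In muscle, polysialic acid on neural cell adhesion molecule marks developing and regenerating fibres. Chondroitin sulfate, also covered here, is a chain of alternating sugars on matrix proteoglycans.

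The 250 bases before and 50 bases after the start of 4 members with an unadjusted p under 0.05 in the comparison of the groups are shown because the means of these members lay on opposite sides of each other, with B4galt5 and St3gal5 lower and Gne and Csgalnact2 higher in NPE tumors. They come from the RefSeq table of GRCm38.p6, which held 29 promoters of 24 of the 36 listed genes, and Nans, the fifth such gene with a level above background, was not among them. Capitals mark the GC box, GGGCGG on either strand, and neighbouring matches can overlap.

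B4galt5 promoter, chr2:167349129-167349428, minus strand: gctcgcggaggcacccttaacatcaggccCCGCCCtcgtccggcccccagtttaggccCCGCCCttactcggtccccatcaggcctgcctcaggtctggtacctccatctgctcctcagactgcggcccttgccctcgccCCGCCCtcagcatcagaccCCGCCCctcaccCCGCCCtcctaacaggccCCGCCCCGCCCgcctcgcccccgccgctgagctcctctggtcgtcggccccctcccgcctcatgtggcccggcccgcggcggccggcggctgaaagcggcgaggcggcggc
St3gal5 promoter, chr6:72097358-72097657, plus strand: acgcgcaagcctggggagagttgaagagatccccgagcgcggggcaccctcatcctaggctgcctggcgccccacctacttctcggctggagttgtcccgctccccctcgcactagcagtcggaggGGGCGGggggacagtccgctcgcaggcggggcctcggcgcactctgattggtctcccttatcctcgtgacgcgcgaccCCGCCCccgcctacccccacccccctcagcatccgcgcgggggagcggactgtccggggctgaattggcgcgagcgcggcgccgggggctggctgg
Gne promoter, chr4:44084128-44084427, minus strand: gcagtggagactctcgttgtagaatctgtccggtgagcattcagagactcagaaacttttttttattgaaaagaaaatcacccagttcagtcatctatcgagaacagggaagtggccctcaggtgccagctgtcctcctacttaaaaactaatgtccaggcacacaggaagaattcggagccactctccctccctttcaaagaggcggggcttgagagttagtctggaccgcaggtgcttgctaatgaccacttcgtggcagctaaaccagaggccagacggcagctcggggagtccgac
Csgalnact2 promoter, chr6:118139091-118139390, minus strand: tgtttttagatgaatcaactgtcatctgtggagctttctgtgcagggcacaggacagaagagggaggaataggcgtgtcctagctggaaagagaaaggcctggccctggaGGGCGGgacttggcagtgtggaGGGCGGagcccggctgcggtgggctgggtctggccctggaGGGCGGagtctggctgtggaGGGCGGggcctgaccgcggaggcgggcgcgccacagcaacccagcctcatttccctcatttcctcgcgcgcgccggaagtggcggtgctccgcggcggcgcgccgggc

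The GC box occurred 7 times before and around the start of B4galt5, 2 times at St3gal5, 4 times at Csgalnact2 and not at all in the window of Gne shown here. The table holds another promoter of Csgalnact2 and another of Gne, which are not shown, and the GC box was found 0 times in each. It was found in 22 of the 29 promoters of the listed genes and in 35.7% of all 32851 promoters. The promoters of the measured members had a median GC content of 64.7%, compared with 52.7% over all promoters. The CCAAT box was found in 11 of the 29 and in 37.4% of all promoters. The muscle E-box CAGCTG was found in 5 of the 29 and in 16.3% of all promoters. The endoplasmic reticulum stress element, CCAAT and CCACG separated by 9 bases on either strand, was found in 0 of the 29 and in 0.119% of all promoters.

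Over the tumors, array medians lay between 5.32 and 5.41. The 95th percentile of the 23 background probe sets, used here as a background level, lay between 6.17 and 7.3. Of the 34 members, 4 were above it in all 21 tumors (B4galt1, B4galt5, St3gal1 and St3gal3), 15 in 7 to 20 tumors and 3 in 1 to 6 (B4galt2, St6galnac5 and St8sia4). The remaining 12 were above it in no tumor, namely B4galt4, B3galt4, St3gal2, St6galnac1, St6galnac3, St8sia1, St8sia3, St8sia5, St8sia6, Nanp, Slc35a1 and Csgalnact1. Their differences have to be read as those of dim probe sets. Over the whole table, 6900 of 22206 probe sets were above this level in at least 7 tumors, against 19 of the 34 members. There were 3 pairs that resembled each other, namely NPE 7 with NPE 8, NPE 11 with NPE 12 and PE 6 with PE 7 (r = 0.47 to 0.71 over values centred on each probe set's mean), and nothing in the labels says whether they share a mouse. The study calls the tumors biologically independent, but whether each came from its own mouse is not in the sources used here, so p-values measure the spread between these samples. The mean of 14 myogenic regulator genes lay between 6.03 and 9.31 in NPE and between 8.45 and 9.08 in PE tumors, and NPE tumor 3 was the lowest, 2.52 log2 units under the mean of all tumors.

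Neu1 itself, the gene deleted on 1 allele, had a log2 value of 6.36 ± 0.18 (SD, n = 14) in NPE and 6.62 ± 0.19 (SD, n = 7) in PE tumors. NPE tumors ranged from 6.04 to 6.76 with a median of 6.34 and PE tumors from 6.42 to 6.92 with a median of 6.57, and 11 of 14 NPE tumors lay under every PE tumor. The difference of -0.27 (SE 0.09) had an adjusted p of 0.513 (limma) and an exact 2-sided permutation p of 0.00561. The Neu1 probe set was above the background level in 6 of 21 tumors, so its values were mostly dim. Which exons it covers was not determined. Neu1 correlated with none of the 34 members over the tumors after adjustment over the 34, and the strongest relation was with Csgalnact2 (Pearson r = -0.64, permutation p = 0.00162, adjusted p = 0.0551, and r = -0.39 over group-centred values). B3galt4 was the 1 member that lies within 10 Mb of Neu1 in GRCm38.p6, and its log2 difference was -0.02 (SE 0.08).

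To learn whether the synthesis genes differed between tumors with and without the deleted Neu1 allele, the groups were compared with limma over all probe sets. None of the 34 members passed an adjusted p of 0.05, a threshold that 2 of 22206 probe sets (0.00901%) passed. At an unadjusted p under 0.05, 3 members were lower in NPE tumors (B4galt5, St3gal5 and Nans), 8.82% of the 34 against 4.36% of all probe sets, and 3 were higher (Csgalnact2, Gne and St8sia6), also 8.82% against 4.05%. With the methods' t-test, 2 members were lower and 3 higher at an unadjusted p under 0.05, against 4.49% and 3.67% of all probe sets, and none passed after adjustment. The exact permutation test gave a p under 0.05 for 5 of the 34 members and for 8.38% of all probe sets. The median log2 difference was 0.04 over the members and 0.00 over all genes, with 19 members higher and 15 lower in the mean of NPE tumors. No member had groups that did not overlap, and 2 of 22206 probe sets (0.00901%) had such groups.

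**Figure D1:**
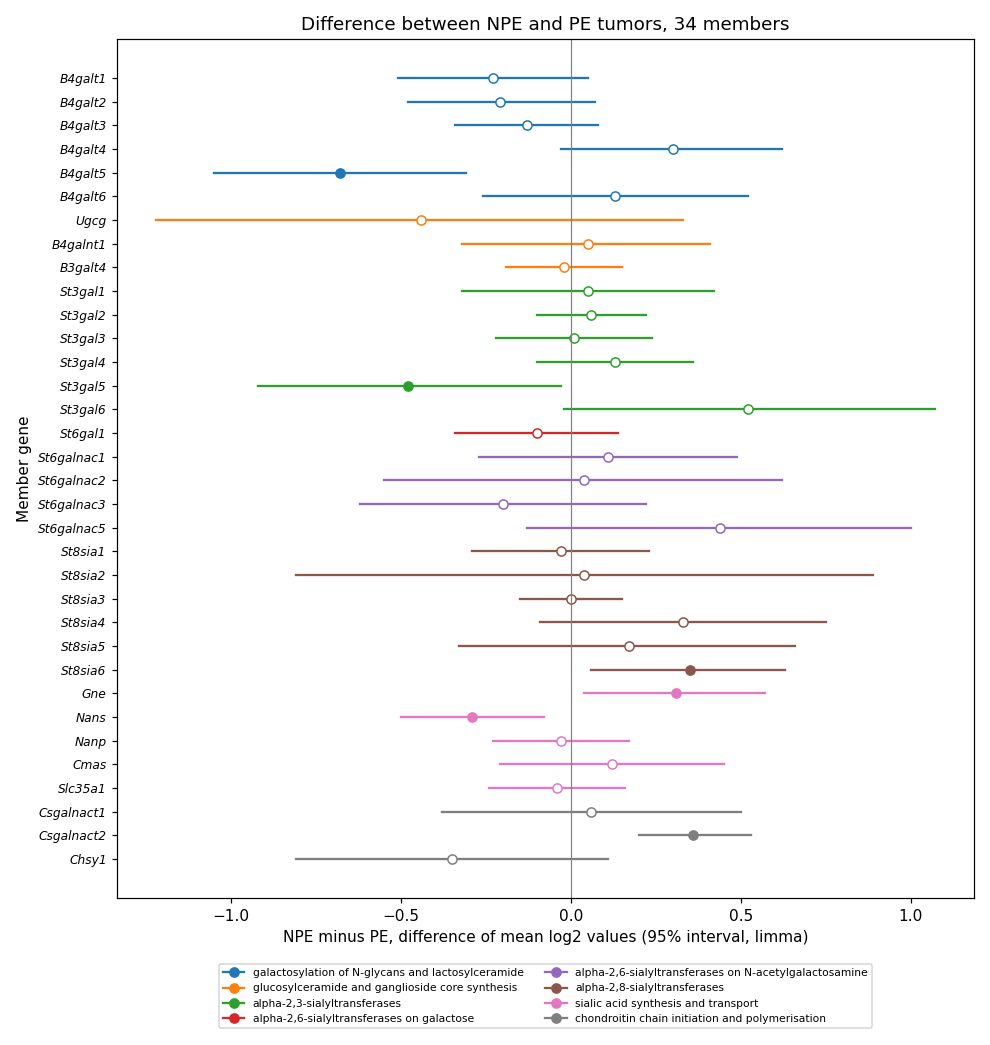
Difference of mean log2 values, NPE minus PE (horizontal axis), with its 95% interval, for 34 members (vertical axis) coloured by role; filled points have an unadjusted limma p under 0.05. The 3 filled points to the left of 0 are B4galt5, St3gal5 and Nans and the 3 to the right are St8sia6, Gne and Csgalnact2.

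Among the enzymes of the lipid route, B4galt5, the galactosyltransferase that makes most lactosylceramide in mice, had the most negative difference of the 34 members. Its log2 values ranged from 7.23 to 8.51 with a median of 8.18 in NPE tumors and from 8.33 to 9.24 with a median of 8.59 in PE tumors. The groups overlapped, with 9 of 14 NPE tumors under every PE tumor and 5 of 7 PE tumors over every NPE tumor. The difference was -0.68 (SE 0.18, 95% interval -1.05 to -0.31), a 1.6-fold lower mean, with an adjusted p of 0.392 (limma, unadjusted p = 0.000882) and an exact permutation p of 0.00169. The lowest 4 tumors were NPE tumors 1, 2, 4 and 3, at 7.23, 7.39, 7.43 and 7.57. Without NPE tumors 1 and 2 the difference was -0.56, and it was -0.63 in a fit that blocked on the range of the numbers in the tumor titles, whose meaning the labels do not give. Within the range 28 to 35, with 5 NPE and 2 PE tumors, the difference was -0.95, and within 18 to 23, with 1 NPE and 5 PE tumors, it was -0.07, while the range 1 to 10 held 8 NPE tumors and no PE tumor. The other lactosylceramide synthase, B4galt6, had a log2 difference of 0.13 (SE 0.19).

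B4galt1 to B4galt4 add galactose to N-glycans and other glycoprotein chains. Of these, B4galt1, B4galt2 and B4galt3 had lower means in NPE tumors and B4galt4 a higher one, with log2 differences of -0.23, -0.21, -0.13 and 0.30 and limma adjusted p-values of 0.623 to 0.766. B4galt2 was above background in 1 of 21 tumors and B4galt4 in none. Over the 6 genes of the galactosyltransferase family, 4 were lower and 2 higher in the mean of NPE tumors, and the median difference was -0.17.

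Ugcg, glucosylceramide synthase, takes the first step of the route and was uneven among NPE tumors. Its values ranged from 4.89 to 8.25 with a median of 7.63 in NPE tumors and from 7.06 to 8.30 with a median of 7.78 in PE tumors. NPE tumors 1, 2, 6 and 4 stood apart at 4.89, 6.12, 6.24 and 6.32, and the other 10 NPE tumors lay within 7.53 to 8.25. The SD among NPE tumors, 1.01, was larger than that of 98.4% of all probe sets, and the SD among PE tumors was 0.47. The group difference of -0.44 (SE 0.37) had an adjusted p of 0.782 (limma), and it was -0.14 without NPE tumors 1 and 2. With the title number ranges as a block the sign turned, to 0.25.

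The ganglioside core enzymes that follow were close in both groups. B4galnt1, the GM2 and GD2 synthase, had a log2 difference of 0.05 (SE 0.18) and B3galt4, the GM1 synthase, one of -0.02.

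St3gal5, the GM3 synthase that commits lactosylceramide to gangliosides, had values of 6.32 to 8.02 with a median of 7.30 in NPE tumors and 7.15 to 8.56 with a median of 7.61 in PE tumors. In all, 5 NPE tumors lay under every PE tumor and 3 PE tumors (PE tumors 7, 6 and 4, at 8.56, 8.16 and 8.09) over every NPE tumor. Its difference was -0.48 (SE 0.22), with an adjusted p of 0.558 (limma, unadjusted p = 0.0361) and an exact permutation p of 0.0511. The unadjusted call did not hold with the methods' t-test, with array weights, with the resembling pairs averaged (p = 0.0592 by limma) or without NPE tumors 1 and 2 (p = 0.0568 by limma). A fit with the Y-linked mean, a marker of male tissue, as covariate gave -0.29 (unadjusted p = 0.174 by limma). That mean was above its average over all tumors in 7 of 14 NPE and in 6 of 7 PE tumors. The differences of St3gal5 were -0.10 and -0.80 within the title numbers 18 to 23 and 28 to 35.

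The other sialyltransferases of this linkage class, which cap galactose chains, had higher means in NPE tumors, by 0.01 to 0.52. St3gal6, which acts on glycoproteins and on selectin ligands, had the highest of these differences, 0.52 (SE 0.26, adjusted p = 0.604 by limma). Its values ranged from 6.64 to 8.57 in NPE and from 6.10 to 7.86 in PE tumors, and NPE tumors 1, 2, 4 and 6 were above every PE tumor. These were the tumors in which Ugcg was lowest. St3gal1, St3gal2, St3gal3 and St3gal4 differed by 0.05, 0.06, 0.01 and 0.13.

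St6gal1, the enzyme that places sialic acid on galactose of N-glycans in the linkage read by the B cell lectin CD22, had values of 6.21 to 7.15 with a median of 6.51 in NPE and 6.33 to 7.00 with a median of 6.62 in PE tumors. The ranges overlapped, and the difference was -0.10 (SE 0.12, 95% interval -0.34 to 0.14, adjusted p = 0.859 by limma). Of the 4 measured enzymes that sialylate N-acetylgalactosamine, St6galnac5, which makes branched gangliosides, had the smallest p. Its values were 4.36 to 6.81 with a median of 5.10 in NPE and 3.82 to 5.67 with a median of 4.79 in PE tumors, and it was above background in 1 of 21 tumors. The difference of 0.44 (SE 0.27, adjusted p = 0.683 by limma) was -0.36 within the title numbers 28 to 35. St6galnac1, St6galnac2 and St6galnac3 differed by 0.11, 0.04 and -0.20.

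Of the enzymes that join sialic acid to sialic acid, St8sia6, which forms short chains on O-glycans, was higher in NPE tumors at an unadjusted p of 0.0193. NPE values were 3.46 to 4.51 with a median of 4.13 and PE values 3.22 to 3.92 with a median of 3.73, and 8 of 14 NPE tumors lay over every PE tumor. The difference was 0.35 (SE 0.14, adjusted p = 0.53 by limma, exact permutation p = 0.0258), from values that were above background in no tumor. PE tumor 6 lay apart from the other PE tumors, and without it the difference was 0.27 (unadjusted p = 0.0665 by limma). With the Y-linked mean as a covariate it was 0.23 (unadjusted p = 0.1 by limma). The polysialic acid synthases St8sia2 and St8sia4 differed by 0.04 (SE 0.41) and 0.33 (SE 0.20). St8sia2 varied more widely than any other member, with an SD of 1.08 among NPE tumors, from 3.45 in NPE tumor 3 to 7.97 in NPE tumor 11. The differences of St8sia1, the GD3 synthase, St8sia3 and St8sia5 were -0.03, 0.00 and 0.17.

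The genes of sialic acid supply went in both directions. Gne, the bifunctional enzyme that starts sialic acid synthesis, ranged over 6.85 to 7.87 in NPE tumors (median 7.30) and over 6.70 to 7.27 in PE tumors (median 7.17). Above every PE tumor were 9 of 14 NPE tumors, and PE tumors 6 and 7 were below every NPE tumor. Its difference was 0.31 (SE 0.13, adjusted p = 0.54 by limma, unadjusted p = 0.0266, exact permutation p = 0.0324). The unadjusted call was lost with the Y-linked mean as a covariate (0.28, p = 0.0582 by limma), without NPE tumors 1 and 2 (0.22, p = 0.0616 by limma), without PE tumor 6 (0.25, p = 0.0762 by limma) and without PE tumor 7 (0.26, p = 0.0711 by limma). Nans, the synthase that condenses the sugar with phosphoenolpyruvate in the next step, had values of 6.71 to 7.51 with a median of 7.19 in NPE and 7.21 to 7.70 with a median of 7.43 in PE tumors. In 8 of 14 NPE tumors it was under every PE tumor, and its difference was -0.29 (SE 0.10, adjusted p = 0.513 by limma, exact permutation p = 0.0101). The last steps, the phosphatase Nanp, the CMP-sialic acid synthetase Cmas and the Golgi transporter Slc35a1, differed by -0.03, 0.12 and -0.04.

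Csgalnact2, which adds the first N-acetylgalactosamine of a chondroitin chain, had the smallest p of all members. Its values ranged from 6.97 to 7.50 with a median of 7.28 in NPE and from 6.74 to 7.06 with a median of 6.91 in PE tumors. Of the 14 NPE tumors, 11 lay over every PE tumor, and 6 of 7 PE tumors lay under every NPE tumor. The difference was 0.36 (SE 0.08, 95% interval 0.20 to 0.53), a 1.29-fold higher mean, with an adjusted p of 0.309 (limma, unadjusted p = 0.000169) and an exact permutation p of 0.000172. With any 1 tumor left out it stayed within 0.33 to 0.39. Within the title numbers 18 to 23 it was 0.07 and within 28 to 35 it was 0.44. The related Csgalnact1 differed by 0.06 (SE 0.21) at levels not above background, and Chsy1, which lengthens the chain, by -0.35 (SE 0.22, adjusted p = 0.692 by limma).

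**Figure D2:**
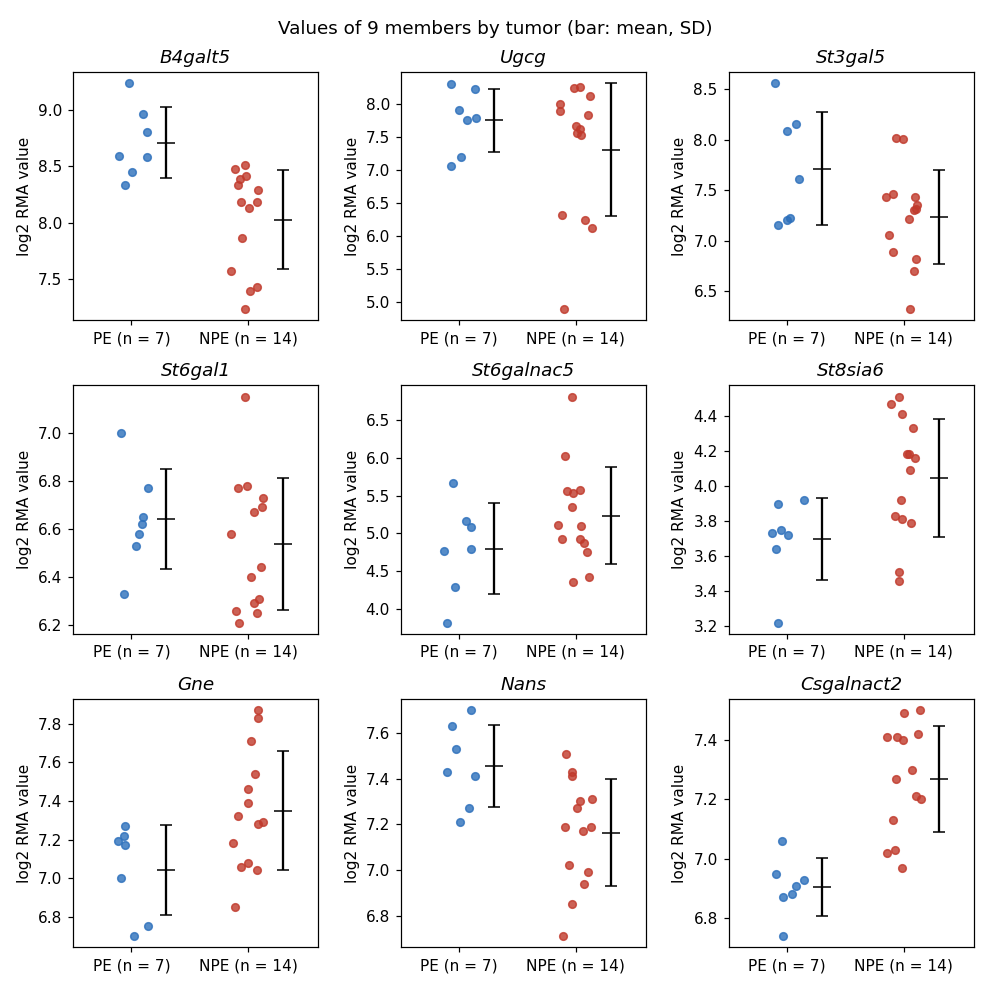
Log2 RMA value (vertical axis) of 9 members in 7 PE (blue) and 14 NPE (red) tumors, 1 point per tumor, with the mean and SD of each group as a bar. The 9 are the members with an unadjusted p under 0.05 and the member of smallest p in each role group; Csgalnact2 shows 11 NPE tumors over every PE tumor, and Ugcg shows 4 NPE tumors between 4.89 and 6.32.

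The genes of the whole table that were most like Csgalnact2 over the group-centred values of the 21 tumors were Ginm1, Zdhhc4, Lax1, Tpm1, Clip4, Nampt, Etfrf1, Gstt1, Daglb and Cltb, with Pearson r between 0.71 and 0.78. They are given as a description, and 21 tumors were compared with 19505 genes. Among them Clip4 had a log2 difference of 1.43 and Tpm1, a tropomyosin, one of 0.45.

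Lists of other genes of the same chemistry were counted beside the members, and each count has to be read against the 4.36% of all probe sets that were lower and the 4.05% that were higher at an unadjusted p under 0.05. Of the ceramide supply genes, 11 of 13 were measured, and none had an unadjusted p under 0.05 in either direction. The same held for the 11 genes of other glycosphingolipid branches, for 10 of 11 sialic acid receptors that were measured and for the 4 polysialic acid carriers. Of 15 measured genes of glycosphingolipid and sialic acid breakdown, 1 was lower at an unadjusted p under 0.05, namely Neu1. Of 3 sialic acid modification genes, Cmah, the hydroxylase that turns Neu5Ac into Neu5Gc in mice, was higher by 0.37 (SE 0.16, adjusted p = 0.543 by limma) at levels not above background. Of 18 measured genes of chondroitin sulfate linker synthesis, polymerisation and sulfation, 2 were lower at an unadjusted p under 0.05, Xylt2, a xylosyltransferase that starts the linker, by -0.34 (SE 0.09, adjusted p = 0.421 by limma) and the sulfotransferase Ust by -0.25 (SE 0.12). Xylt2 was above background in 1 of 21 tumors and Ust in none. Of 13 other mucin-type O-glycan genes, Galnt7 was higher by 0.31 (SE 0.12) and was above background in no tumor. An adjusted p of 0.05 was reached by none of them with limma, and the list medians lay between -0.11 and 0.24.

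Marker lists of other cell types and states were counted in the same way, against the same 4.05% higher and 4.36% lower of all probe sets, and no list was tested as a whole. All 18 measured adipocyte genes were higher in the mean of NPE tumors, 11 of them at an unadjusted p under 0.05, and the list mean ranged from 5.67 to 9.44 among NPE tumors and from 5.18 to 6.59 among PE tumors. Of 18 mature muscle fibre genes 17 were higher, 4 of them at an unadjusted p under 0.05 (list means 7.73 to 11.24 and 8.07 to 9.72). Of 11 endothelial genes 11 were higher, 5 of them at an unadjusted p under 0.05. The mean of the endothelial list mean was 6.94 in NPE and 6.57 in PE tumors. All 13 cell cycle genes were lower in NPE tumors (5.19 to 7.38 and 6.36 to 7.49), and 16 of 18 endoplasmic reticulum chaperone genes were lower (7.77 to 8.60 and 8.55 to 8.82), 7 and 10 of them at an unadjusted p under 0.05. Of 14 myogenic regulator genes 12 were lower, 2 of them at an unadjusted p under 0.05, with a median difference of -0.41, and of 12 lymphocyte and plasma cell genes 9 were higher, 2 of them at an unadjusted p under 0.05, with a median of 0.22. The medians of the macrophage, fibroblast and matrix, Schwann cell and keratinocyte lists were -0.07, 0.03, -0.01 and -0.02. Most genes of the lymphocyte, Schwann cell and keratinocyte lists were above background in no tumor. The Y-linked genes were also lower in the mean of NPE tumors (2.35 to 7.44 and 2.52 to 7.16). The part of these differences in the values of the members was not tested, beyond the fits without NPE tumors 1 and 2 and with the Y-linked mean given above.

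**Figure D3:**
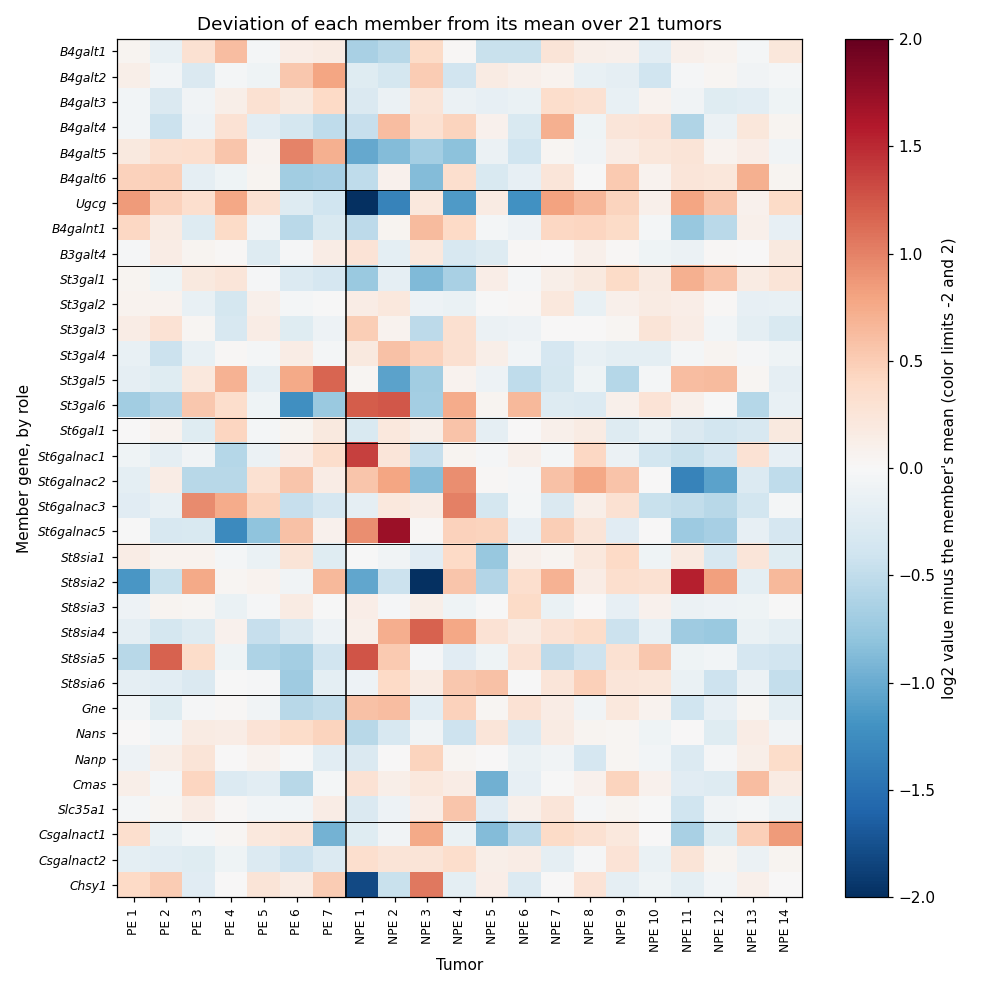
Log2 value of each member (rows, grouped by role) minus its mean over the 21 tumors, in 7 PE and 14 NPE tumors (columns), with color limits of -2 and 2. NPE tumors 1 to 4 carry the lowest B4galt5 values, and Ugcg is lowest in NPE tumors 1, 2, 4 and 6.

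Correlations over the 21 tumors showed which members moved together. Over 561 pairs, 19 passed a permutation p adjusted by the Benjamini-Hochberg method, 6 positive and 13 negative, and 2 of the 19 also passed with values centred on their group. The share of pairs of other genes that would pass was not determined. The smallest p that 100000 permutations can give is 1e-05 before adjustment. With the 2 tumors farthest from the median of the gene on the x axis left out, 1 pair passed. St3gal6 and Chsy1 were opposed (Pearson r = -0.77, Spearman rho = -0.88, adjusted p = 0.00281 and 0.00561), with r = -0.74 over group-centred values (adjusted p = 0.00561), -0.82 without those 2 tumors and -0.80 with the 3 resembling pairs averaged. St3gal6 and Gne varied together (r = 0.83, rho = 0.76, adjusted p = 0.00281 and 0.0224), with r = 0.80 over group-centred values (adjusted p = 0.014) and 0.72 without the 2 tumors.

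B4galt5 and Nans, both with lower means in NPE tumors, were positively related (r = 0.81, rho = 0.62, adjusted p = 0.00281 and 0.0903), with r = 0.71 over group-centred values (adjusted p = 0.0737). B4galt5 was opposed to Csgalnact2 (r = -0.79, rho = -0.72, adjusted p = 0.00281 and 0.0633) and to Gne (r = -0.77, rho = -0.61, adjusted p = 0.00449 and 0.0956). Over group-centred values these were -0.62 and -0.69 (adjusted p = 0.122 and 0.0737). Nans was likewise opposed to Csgalnact2 (r = -0.73, rho = -0.72, adjusted p = 0.0103 and 0.0633), with -0.58 over group-centred values. Ugcg and B4galt1 had r = 0.69 (rho = 0.52, adjusted p = 0.0281 and 0.2), and Ugcg and St6galnac1 had r = -0.74 (rho = -0.56, adjusted p = 0.0285 and 0.143). Leaving out the 2 tumors brought these to 0.45 and -0.43, so both rested largely on those tumors. B4galt4 and B4galnt1 had r = 0.67 (rho = 0.69, adjusted p = 0.0361 and 0.0633), and Ugcg and Chsy1 had r = 0.67 (rho = 0.37, adjusted p = 0.0689 and 0.427). Of these genes, St6galnac1 and B4galt4 were above background in no tumor.

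Each member was then set against the mean of each marker list, 408 relations in all, of which 77 passed the adjusted p, 45 positive and 32 negative. The share of all genes that would pass against these lists was not determined, so the counts are not read as particular to the members. With group-centred values 49 passed, all of them among the 77, and with the 2 tumors farthest from the median of the list left out 34 passed. B4galt5 was low where adipocyte genes were high (r = -0.87, rho = -0.89, adjusted p = 0.000453 and 0.00136, n = 21, permutation test). This relation was -0.85 over group-centred values, -0.85 without the 2 tumors farthest from the median, -0.88 with the resembling pairs averaged, and -0.86 within the NPE tumors and -0.86 within the PE tumors alone. B4galt5 was high where the endoplasmic reticulum chaperone and unfolded protein response genes were high (r = 0.80, rho = 0.77, adjusted p = 0.00068 and 0.00442), with 0.67 over group-centred values (adjusted p = 0.02). Nans had the highest r with that list, 0.82 (rho = 0.70, adjusted p = 0.000453 and 0.0166), and 0.74 over group-centred values.

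Gne had the highest r with the adipocyte list (r = 0.84, rho = 0.77, adjusted p = 0.000453 and 0.00371) and with the lymphocyte and plasma cell list (r = 0.86, rho = 0.85, adjusted p = 0.000453 and 0.00136). Over group-centred values these were 0.80 and 0.83, and without the 2 farthest tumors 0.74 and 0.79. The lymphocyte list mean was low, from 3.89 to 5.34 among NPE tumors and from 3.82 to 4.56 among PE tumors. Of its genes only Jchain, in 8 tumors, Cd3g, in 2, and Cd3e, in 1, were above background in any tumor. The relation of Gne with this list therefore rests mostly on values of dim probe sets. Gne was opposed to the cell cycle list (r = -0.82, rho = -0.78, adjusted p = 0.00068 and 0.00286). St3gal6 had the highest r with mature muscle fibre genes (r = 0.83, rho = 0.84, adjusted p = 0.000453 and 0.00136), which was 0.80 over group-centred values and 0.81 without the 2 tumors. B4galt1 had the highest r with the cell cycle list (r = 0.70, rho = 0.61, adjusted p = 0.00676 and 0.0411), and it was 0.49 without the 2 tumors.

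St3gal1, which sialylates O-glycans, followed the myogenic regulator list (r = 0.84, rho = 0.79, adjusted p = 0.000453 and 0.00255), with 0.88 over group-centred values and 0.82 without the 2 tumors. The polysialic acid synthase St8sia2 had r = 0.80 with the same list (rho = 0.57, adjusted p = 0.00676 and 0.0647), but 0.38 without the 2 tumors, one of them NPE tumor 3. The other polysialic acid synthase, St8sia4, followed macrophage genes (r = 0.85, rho = 0.82, adjusted p = 0.000453 and 0.00136) and endothelial genes (r = 0.84, rho = 0.77, adjusted p = 0.000453 and 0.00272). Over group-centred values these were 0.89 and 0.81. Within the NPE tumors alone they were 0.91 and 0.92, and within the PE tumors alone 0.64 and 0.01, so the relation with endothelial genes was not seen in the 7 PE tumors. St8sia4 was above background in 3 of 21 tumors, so its values were mostly dim. B4galnt1 had the highest r with fibroblast and matrix genes (r = 0.78, rho = 0.63, adjusted p = 0.000942 and 0.0304), and 0.75 without the 2 tumors. The highest r with the Y-linked list was that of St3gal5 (r = 0.57, rho = 0.50, adjusted p = 0.0411 and 0.125). St8sia6, above background in no tumor, was opposed to the Y-linked list (r = -0.58, rho = -0.47, adjusted permutation p = 0.0385 and 0.167). St8sia4 was opposed to the keratinocyte list (r = -0.75, rho = -0.68, adjusted p = 0.0026 and 0.0178), with -0.71 over group-centred values (adjusted p = 0.00729) and -0.50 without the 2 tumors. St6gal1 was opposed to the same list (r = -0.56, rho = -0.54, adjusted p = 0.0445 and 0.0888), with -0.41 without the 2 tumors, and Ugcg to the Schwann cell list (r = -0.59, rho = -0.35, adjusted p = 0.0497 and 0.383), with -0.31 without them. Among the keratinocyte genes only Trp63 was above background in any tumor, in 18 of 21. Among the Schwann cell genes only Pmp22, in all 21 tumors, and Mbp, in 1, were above it. Both lists are therefore mostly values of dim probe sets. The highest positive values for the Schwann cell and keratinocyte lists, St6galnac1 (r = 0.61, rho = 0.22) and St3gal1 (r = 0.53, rho = 0.31), did not pass (adjusted p = 0.0571 and 0.069 for Pearson, 0.633 and 0.462 for Spearman) and were 0.21 and 0.11 without the 2 tumors. St6galnac1 was above background in no tumor.

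**Figure D4:**
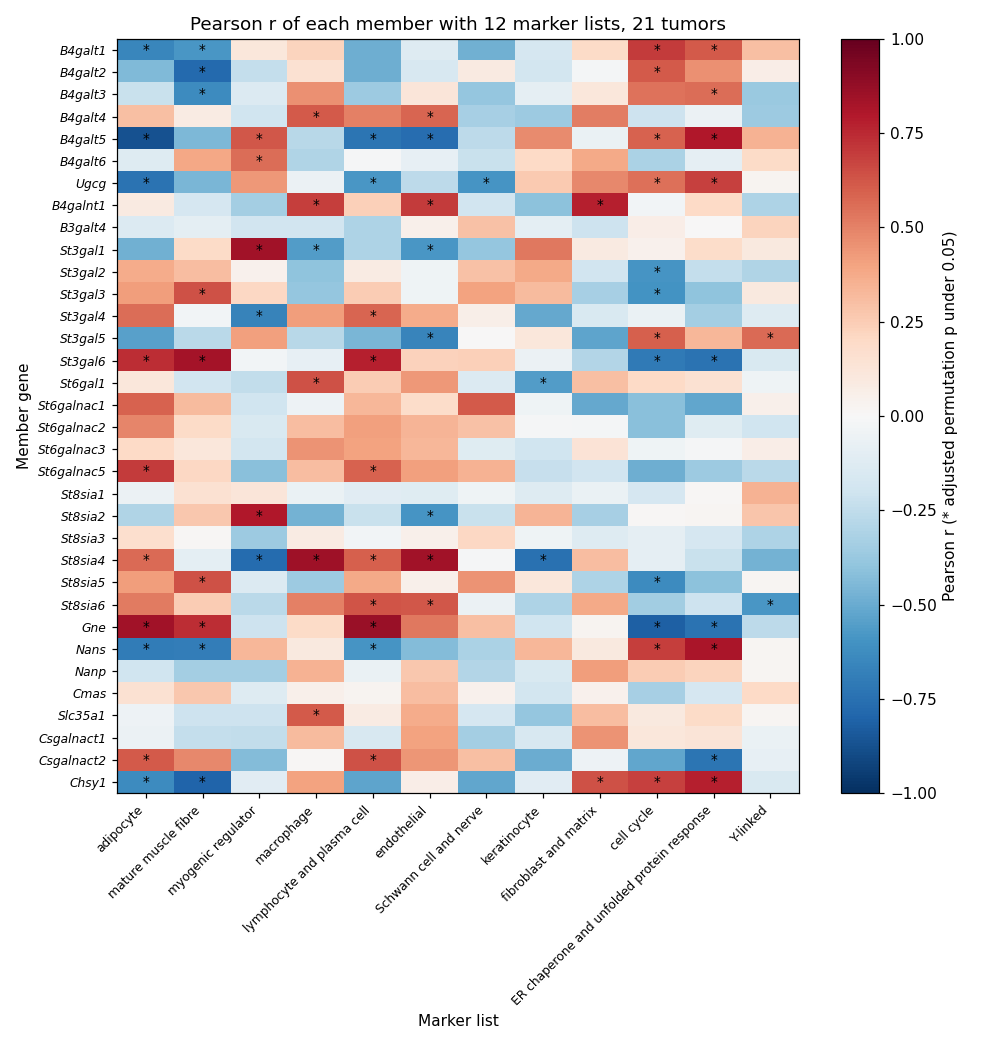
Pearson r over 21 tumors of each of 34 members (rows) with the mean of each of 12 marker lists (columns); stars mark an adjusted permutation p under 0.05. B4galt5 and Gne stand opposite each other in the adipocyte column, at -0.87 and 0.84, and St3gal1 stands out with the myogenic regulators at 0.84.

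**Figure D5:**
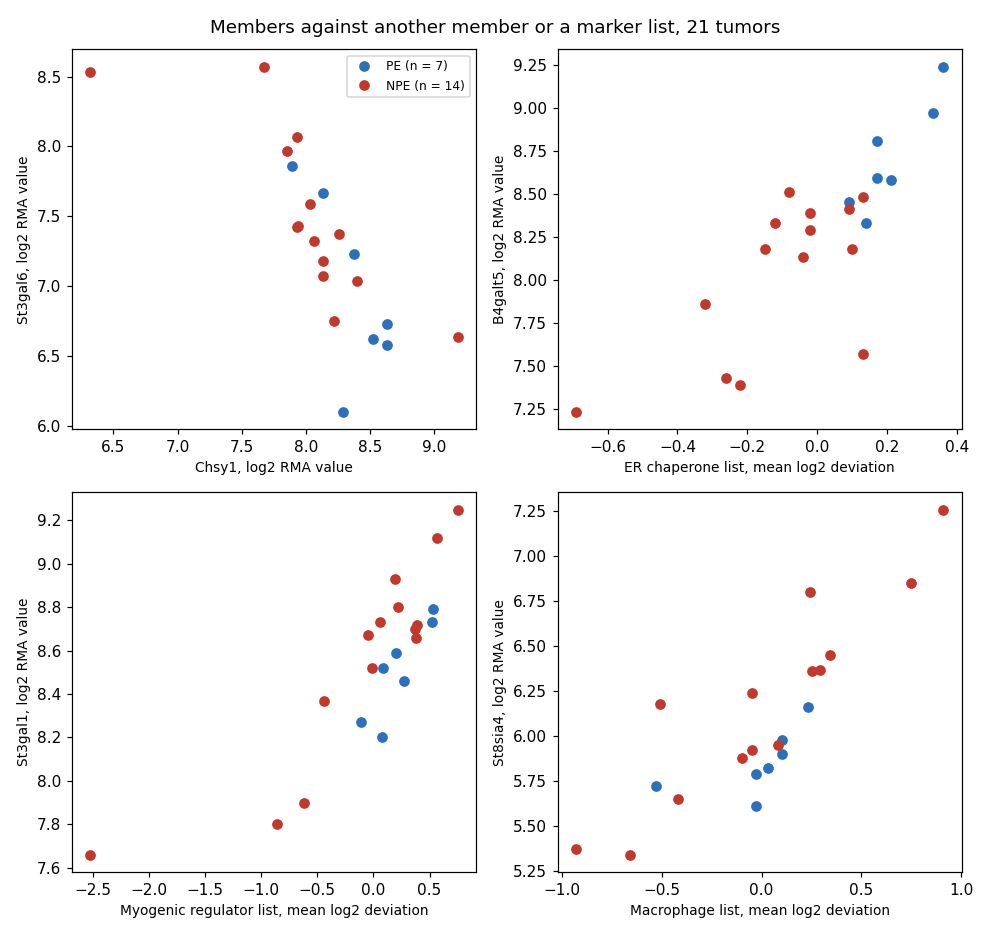
Log2 RMA values of St3gal6 against Chsy1, and of B4galt5, St3gal1 and St8sia4 against the level of a marker list (mean of the genes' log2 deviations from their means over the tumors), with 1 point per tumor, PE blue and NPE red. Pearson r over the 21 tumors was -0.77, 0.80, 0.84 and 0.85 in the 4 panels. St8sia4 was above background in 3 of the 21 tumors.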

How the data were processed

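Arrays of the Clariom S type for mouse were used, 1 for each of 14 NPE and 7 PE tumors. The authors deposited log2 values after RMA, which corrects background, normalizes by quantiles and summarises probes, with Affymetrix Expression Console 1.1 per the labels, and raw signals were not used here. RMA normalizes all arrays together, so a shift shared by most probe sets would not be seen. Of 28846 probe sets, 94 controls and 6546 with names starting MG- were left out. Probe sets were named by GEO's platform annotation, which may be outdated. Groups were taken from the tumor labels. The members and lists were chosen with earlier results of these data known.

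The groups were fitted with limma 3.58.1 in R 4.3.3 without covariates, 2-sided, adjusted by Benjamini-Hochberg over 22206 probe sets. Single members were tested by exact permutation over all splits of the tumors. Correlations used 100000 permutations, adjusted within each family. Values in full are given for members with an unadjusted p under 0.05 and for the smallest p of each role group; other members are named where a role or correlation calls for it, some after their values were seen. List genes named are those with an unadjusted p under 0.05, at most 4 a list. Alternatives changed the test, variance model, weights, probe sets, scaling, covariates and tumors. The fit was tested on simulated data. The number of arrays limits the precision. Python 3.11.15 and matplotlib 3.10.9 were used.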

Additional observations from a re-analysis of the deposited data

Results flagged for a closer look

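Among the 34 members, 2 had a PE tumor far from the other PE tumors, by Dixon's test, which flags about 1 in 20 groups by chance. St8sia6 was at 3.22 in PE tumor 6, with the next PE tumor at 3.64, and Csgalnact1 was at 3.35 in PE tumor 7, with the next at 4.17. Both probe sets were above background in no tumor.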

How the results depend on the processing

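Over 35 alternatives, no member passed an adjusted p of 0.05 in 33, and the cause of the exceptions was not tested. With the replicate block, that is the tumor number of the titles, 1 member passed (B4galt5, -1.01, adjusted p = 0.022 by limma), 5 were lower and 5 higher at an unadjusted p under 0.05 (6.89% and 8.87% of all probe sets), 243 probe sets and 2 other pathway genes passed, and St6gal1 turned to 0.01. The labels do not say whether these numbers pair the tumors. Correlations of same-numbered deviations were -0.31 to 0.13 and 0 of 7 PE tumors correlated best with its own number, which cannot settle it. NPE tumors 8 to 14 have no PE tumor of the same number, so the difference in that fit rests on tumors 1 to 7. Among title numbers 28 to 35, where 6 of the 7 tumors belong to the resembling pairs, 1 member passed (B4galt6), as did 355 probe sets and 1 other pathway gene, and Ugcg was 0.65 and St6galnac5 -0.36. There B4galt2, B4galt5, St3gal5 and Nans were lower and B4galt6, St3gal6, Gne and Csgalnact2 higher at an unadjusted p under 0.05. Over all probe sets, 8.47% were lower and 6.57% higher. With the title number ranges as a block, 5 members were higher and B4galt2, B4galt5, St3gal5 and Nans lower at the unadjusted threshold. Over all probe sets, 3.72% were higher and 5.12% lower in that fit, 14 probe sets passed, and Ugcg was 0.25 and St6galnac5 -0.03. Among numbers 18 to 23, 0 members were lower and 0 higher at an unadjusted p under 0.05 (2.44% and 2.93% of all probe sets) and 4 probe sets passed. With the Y-linked mean as a covariate 1 member was higher (3.31% of all probe sets) and B4galt3, B4galt5 and Nans were lower (3.72%). Student's t-test, array weights, the background filter, the Y-linked covariate, the averaged pairs and the fit without NPE tumors 1 and 2 each left 1 probe set past the threshold. With any 1 tumor left out, 0 members passed, and 1 to 3 probe sets passed (1 without PE tumor 2, 3, 4, 6 or 7). At an unadjusted p under 0.05, 2 to 3 members were lower and 2 to 5 higher (5 without PE tumor 4). Over all probe sets, 2.8% to 5.05% were lower and 2.86% to 4.81% higher in these fits (4.07% and 3.83% without PE tumor 4). St3gal5 lost the unadjusted p under 0.05 in 7 of these 21 fits, Gne without PE tumor 6 or PE tumor 7, and St8sia6 without PE tumor 6. The exact permutation test gave a p under 0.05 for 3 to 7 members with any 1 tumor left out (3 without PE tumor 6). The share of all probe sets in those tests is not given here, and over all 21 tumors it was 8.38%. The pairs of members past the adjusted p were 2 with group-centred values and 1 without the 2 farthest tumors, and relations with marker lists were 49 and 34. Alternatives for the permutation tests, the whole table, the other pathway genes and the averaged pairs in the correlations were chosen after seeing the data. Dim probe sets limit the 12 members not above background and the 3 above it in 1 to 6 tumors.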
